A study of Mus musculus with 4 samples.

Results

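Interferon-stimulated and antigen presentation genes were compared between libraries labelled si-Itgb6 and libraries labelled si-NC from hypoxic TKPTS cells. The set holds 42 genes taken by symbol. Of these, 41 were matched in the deposited table of 22063 genes, and Mx2 was not analysed here. Of the matched genes, 40 passed the filter on low counts that left 11727 genes tested, and Nlrc5 did not. The symbols were not picked by a threshold on these values.

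RNA-sequencing covered 4 libraries of TKPTS cells, a mouse renal proximal tubular line that the labels write as TKPT. Replicates 2 and 3 of si-NC carried a scrambled siRNA and are labelled WT, and replicates 1 and 3 of si-Itgb6 carried the Itgb6 siRNA and are labelled Itgb6 knockdown. Both groups were transfected with a short double-stranded RNA and then kept for 24 h in 1% O2 and 5% CO2, followed by 12 h in normal oxygen. An untransfected or normoxic sample was not analysed here, so the comparison is between siRNAs within hypoxic cells. The model is a single cell line, and the labels do not say that replicates of a group came from separate cultures, so the p-values measure only the spread between these libraries. The study stated that the samples taken forward were optimized after a cluster analysis.

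Type I and type III interferons bind receptors that signal through JAK kinases to a complex holding STAT2 and IRF9, which binds the interferon-stimulated response element (ISRE) in promoters. The genes switched on include sensors of viral RNA, effectors that block translation or entry of viruses, and the ISG15 modifier. Interferon gamma acts through gamma-activated sites (GAS) in promoters and induces guanylate-binding proteins, the immunoproteasome and the peptide transporter that loads MHC class I molecules. Kidney tubular cells can respond to both kinds of interferon and can present antigen on MHC class I.

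The promoter windows of 4 genes called higher with the Itgb6 siRNA label, and of Isg15 and B2m, whose levels did not pass the thresholds, are shown because they carry the ISRE core that the complex described above binds. The sequences are from RefSeq on GRCm38.p6, written 5′ to 3′ on the strand of the gene. Capitals mark matches to the ISRE core, written here as GAAA, any 2 bases and GAAA, or on the other strand TTTC, any 2 bases and TTTC, with overlapping matches merged. The windows are chr19:34640755-34640843 (plus strand) for Ifit1, chr19:34583343-34583446 (plus) for Ifit3, chr19:34607739-34607842 (plus) for Ifit3b, chr3:142620574-142620643 (plus) for Gbp2, chr4:156200845-156200926 (minus) for Isg15 and chr2:122147518-122147587 (plus) for B2m.
Ifit1: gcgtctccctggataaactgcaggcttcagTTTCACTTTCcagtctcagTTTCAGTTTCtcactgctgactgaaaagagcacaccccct
Ifit3: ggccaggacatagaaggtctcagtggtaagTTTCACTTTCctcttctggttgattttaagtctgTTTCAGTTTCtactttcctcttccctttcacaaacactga
Ifit3b: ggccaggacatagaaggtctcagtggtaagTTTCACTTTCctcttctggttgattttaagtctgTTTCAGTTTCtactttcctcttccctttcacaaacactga
Gbp2: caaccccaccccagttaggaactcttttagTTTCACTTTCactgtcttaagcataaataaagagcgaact
Isg15: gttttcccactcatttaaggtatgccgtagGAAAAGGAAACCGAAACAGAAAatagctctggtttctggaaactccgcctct
B2m: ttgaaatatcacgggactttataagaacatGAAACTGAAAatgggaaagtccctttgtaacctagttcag
All 6 windows lie upstream of the RefSeq start. The GENCODE start of Gbp2 (142620602) falls inside its window, so that the marked letters lie just past that start. The Ifit3 and Ifit3b windows were identical at 104 of 104 bases, with 2 matches each. The Ifit1 window held 2 matches, Isg15 held 3 that overlap, and Gbp2 and B2m held 1 each. Over the 300 bases from 250 before to 50 after a start, the ISRE core was found on either strand in 1131 of 32851 promoters (3.44%) and in 16 of the 32 members with an entry (50%). It was found in 4 of the 6 members called higher that have an entry (66.7%) and in 12 of the other 26 (46.2%). The GAS letters TTCNNNGAA, which read the same on both strands, were found in 8.3% of promoters and in 11 of the 32 members (34.4%). For both motifs a member was counted if any of its promoter entries matched, and some members have several entries. The share over all promoters was counted per entry, so the units of these shares differ. Gvin2, Dhx58, Nlrc5, Mx2, Usp18, Rtp4, Ifi27, Tap2, Parp9 and Parp14 were not searched. A match is a string of letters and was not tested as a binding site.

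The totals ran from 15435080 to 17220286 estimated counts per library. Itgb6, the targeted integrin subunit, had 285 counts in si-NC replicate 2 and 284 in replicate 3, against 279 counts in si-Itgb6 replicate 1 and 260 in replicate 3. Its level was 17.0 ± 0.730 CPM (counts scaled to the normalized library size; mean ± SD, n = 2) against 16.9 ± 1.58, and the log2 fold change of -0.0051 had a 95% interval of -0.27 to 0.26 (adjusted p = 0.991, edgeR quasi-likelihood test). The targeted mRNA therefore did not separate the groups, and the libraries are named by their labels throughout. The study reported less integrin αvβ6 protein by western blot after the Itgb6 siRNA in hypoxic TKPTS cells. It also stated that the siRNA was checked by qPCR. Epithelial genes were abundant (Krt18, 12866 to 15012 counts; Epcam, 5323 to 6485), whereas 2 defining transporters of the mature proximal tubule, Slc34a1 and Slc5a2, had 0 counts in all 4 libraries. At least 2110 of all 11727 genes tested had an unadjusted p under 0.05 by edgeR, and 4.62% had an adjusted p under 0.05. Of 13 epithelial and tubular markers tested, 5 had an unadjusted p under 0.05 and 3 an adjusted p under 0.05 by edgeR. These 3 were the water channel Aqp1 (log2 fold change 0.59, adjusted p = 0.000617), the injury marker Havcr1 (0.19, adjusted p = 0.0358) and the keratin Krt8 (-0.20, adjusted p = 0.00881), and Aqp1 alone passed the fold threshold given next.

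A gene was called at the thresholds named by the study, which are p under 0.05 before adjustment together with a more than 1.2-fold change, and the p adjusted over all 11727 genes is given beside it. Of the 40 genes tested, 8 were called (20%, against 9.57% of all genes tested), 7 of them higher in the libraries labelled si-Itgb6 (17.5%, against 4.37%) and 1 lower (2.5%, against 5.2%). The 7 higher genes were the 4 members of the Ifit family, Oasl2, Gvin2 and Gbp2, and the lower gene was Psmb9. At an adjusted p under 0.05 only Gvin2 and Ifit3 remained, which is 5% of the set against 4.62% of all genes tested. Both were higher, against 2.11% of all genes at that threshold on the higher side and 2.52% on the lower. The other 32 genes did not pass. Of these, 5 had p under 0.05 before adjustment but a fold change not over 1.2, and all 5 were on the lower side (Irf7, Trim25, Ifitm2, Ifitm3 and Ifi27). Before adjustment 13 of the 40 had p under 0.05, beside at least 2110 of the 11727 genes tested (edgeR). The share of all genes with a fold change not over 1.2 at that p was not counted. The 5 are therefore not compared with the table as a whole.

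The set did not move as a block. Log2 fold changes were above 0 for 22 genes and below 0 for 18, and their median was 0.04, beside 0.0002 for all genes tested. Without the Ifit family and Gvin2 the median of the remaining 35 genes was -0.01. The log2 fold change was within 0.2 of 0 for 27 of the 40. The groups did not overlap for 21 of the 40 genes (52.5%, against 49.2% of all genes tested), so separation of 2 libraries from 2 was about as common in this set as in the table as a whole. They were 12 on the higher side and 9 on the lower, where the table had 23.8% and 25.4% of its genes. In the plot of fold changes by role, the intervals of the 4 Ifit genes, Oasl2, Gvin2 and Gbp2 lie above 0, while Gbp3, Gbp7, Tap1 and B2m lie near 0.

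**Figure D1:**
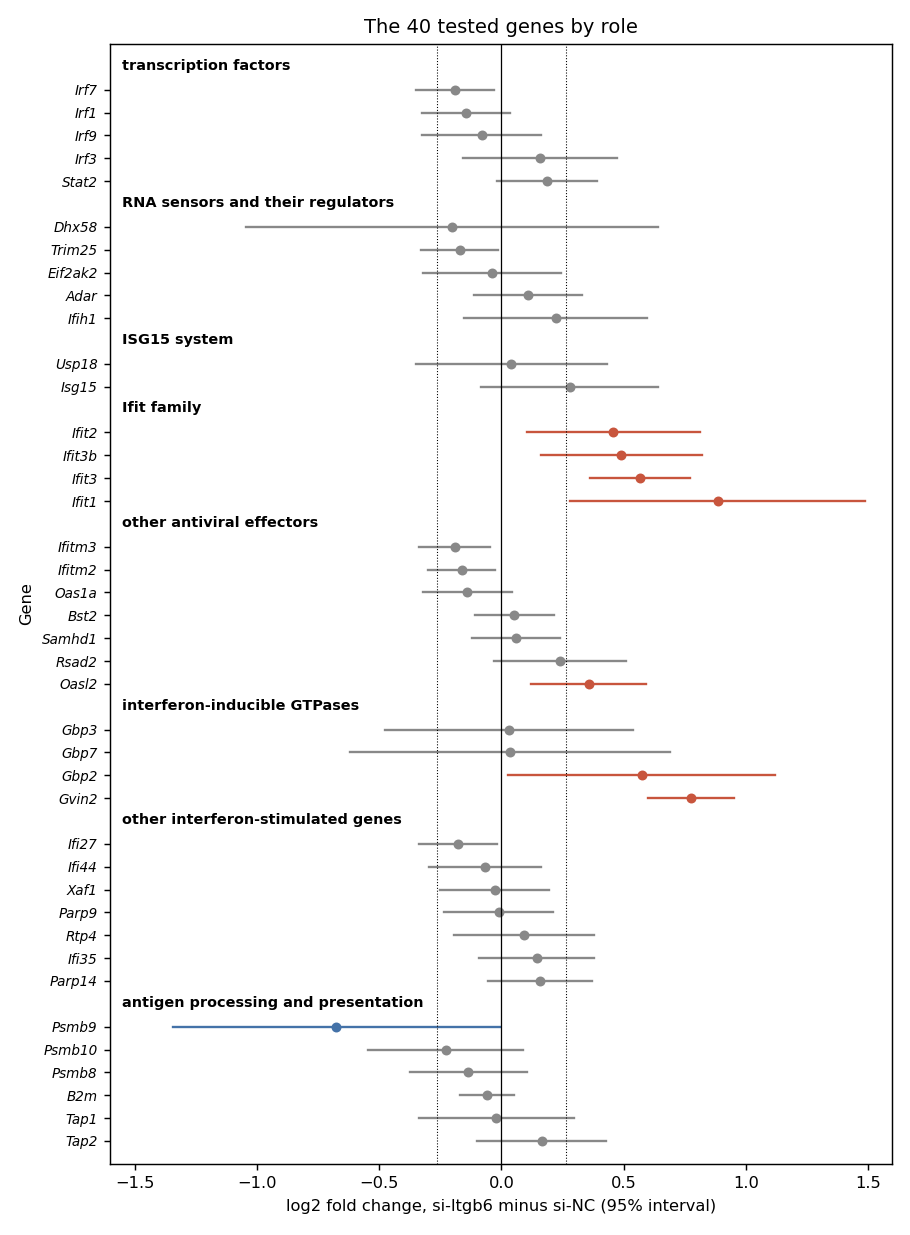
Log2 fold change (si-Itgb6 minus si-NC) of the 40 tested genes, grouped by role, with 95% intervals from the edgeR quasi-likelihood fit on 2 libraries per group; dotted lines mark a fold change of 1.2. Red genes were called higher, the blue gene was called lower and grey genes were not called, and most grey intervals cross 0.

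The Ifit family, tetratricopeptide proteins that bind viral RNA and restrain its translation, was the one role in which every tested member was called higher (4 of 4, median log2 fold change 0.53). The genes lie together on chromosome 19, between positions 34550694 and 34650009 of GRCm38. Their summed level was 62.7 and 51.9 CPM in the si-NC libraries and 80.6 and 87.3 CPM in the si-Itgb6 libraries.

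Ifit3, which bridges antiviral adaptor proteins, had 675 counts in si-NC replicate 2 and 558 in replicate 3, against 791 counts in si-Itgb6 replicate 1 and 954 in replicate 3. Counts below follow the same order of libraries. Both si-Itgb6 libraries were above both si-NC libraries. The level was 36.9 ± 6.42 CPM against 54.5 ± 4.84, a log2 fold change of 0.57 (SE 0.10, 95% interval 0.36 to 0.77) with an adjusted p of 0.000571 (edgeR).

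Ifit1, which binds RNA lacking the 2′-O-methylated cap, was low, with 36 and 38 counts in si-NC and 69 and 61 counts in si-Itgb6. The groups did not overlap, and the si-NC libraries were nearly equal. It had the largest log2 fold change of the 40 genes, 0.89 (SE 0.30, 95% interval 0.28 to 1.49), but its adjusted p was 0.0795 (edgeR). Without si-Itgb6 replicate 1 the log2 fold change was 0.75 and the gene was not called.

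Ifit2, which acts with Ifit1 and Ifit3 and has been tied to cell death, had 119 and 153 counts in si-NC and 175 and 180 counts in si-Itgb6. The si-Itgb6 libraries were higher without overlap, while the si-NC libraries differed from each other by more than the si-Itgb6 libraries did. Its log2 fold change was 0.46 (SE 0.17) with an adjusted p of 0.129 (edgeR). The call was lost without si-NC replicate 2 (0.33), with DESeq2 (0.46) and with GC and length trends removed (0.33). The fit with trends removed left differences in library size uncorrected, here and below.

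Ifit3b, a near copy of Ifit3, had 193 and 147 counts in si-NC and 213 and 243 counts in si-Itgb6. The groups did not overlap, with si-NC replicate 3 the lowest library, as it was for Ifit3. The log2 fold change was 0.49 (SE 0.16) with an adjusted p of 0.0743 (edgeR), and without si-NC replicate 3 it was 0.27 and not called. Of the 50-base stretches of the longest Ifit3 transcript, 51.2% also occur in another gene, chiefly Ifit3b, and the counts of both genes are not whole in 3 libraries, so reads may have been split between them. Their summed counts were 868 and 705 in si-NC and 1004 and 1197 in si-Itgb6, a log2 fold change of 0.55 (SE 0.09, 95% interval 0.36 to 0.74, adjusted p = 0.000462, edgeR). The sum does not depend on how reads were split between the pair.

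**Figure D2:**
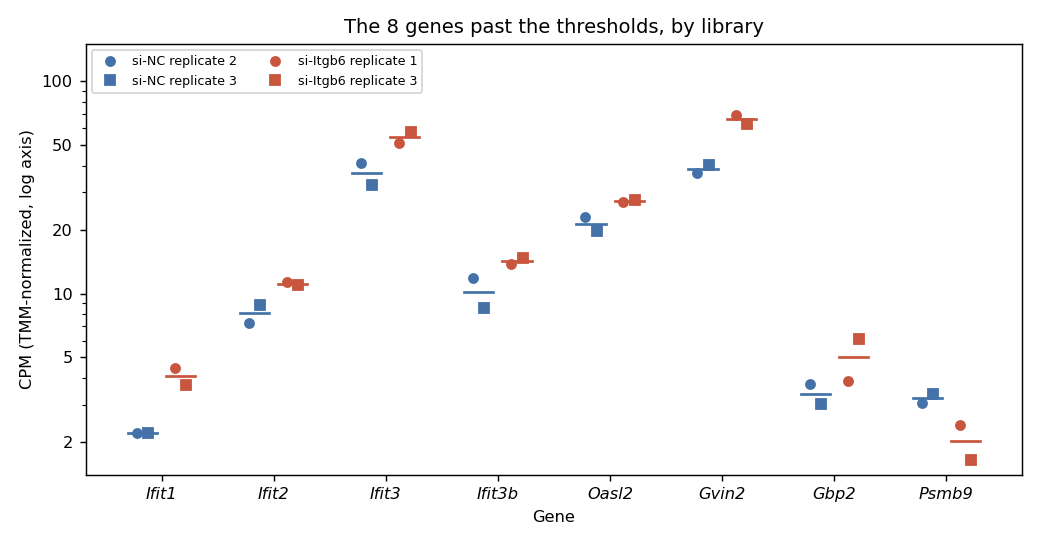
Level of the 8 called genes in each library, in TMM-normalized CPM on a log axis; circles and squares are the 2 libraries of a group (si-NC blue, si-Itgb6 red) and bars are group means. No gene overlaps between groups, Ifit1, Gbp2 and Psmb9 lie below 7 CPM, and for Gbp2 the si-Itgb6 libraries differ by more than the si-NC libraries.

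Among the interferon-inducible GTPases, large proteins that act on pathogen-containing vacuoles, 2 of 4 were called higher. Gvin2, a very large inducible GTPase, had 604 and 697 counts in si-NC and 1075 and 1042 counts in si-Itgb6. The si-Itgb6 libraries were close to each other and well above both si-NC libraries. The level was 38.7 ± 2.35 CPM against 66.4 ± 4.36, a log2 fold change of 0.78 (SE 0.09, 95% interval 0.60 to 0.95) with an adjusted p of 1.57e-06 (edgeR), the second smallest of all 11727 genes. It was called, with an adjusted p under 0.05, under every alternative tried.

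The reads of Gvin2 cannot be told apart with certainty from those of related genes. Its identifier carries the name Gm4070 in the annotation used here (GRCm38, chromosome 7, 105895139 to 105953967, minus strand), 98.9% of its 50-base stretches also occur in other genes (Gvin1, Gm8979 and Gm8989), and its counts are not whole in any of the 4 libraries. Gvin1 had 802 and 1044 counts in si-NC and 996 and 1147 counts in si-Itgb6, with log2 fold change 0.29 (adjusted p = 0.0516, edgeR); the groups overlapped in counts but not after normalization. Summed, Gvin1 and Gvin2 had 1406 and 1741 counts in si-NC and 2071 and 2189 counts in si-Itgb6. The log2 fold change of the sum was 0.51 (SE 0.07, 95% interval 0.37 to 0.66, adjusted p = 3.25e-05, edgeR), smaller than for Gvin2 alone.

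**Figure D3:**
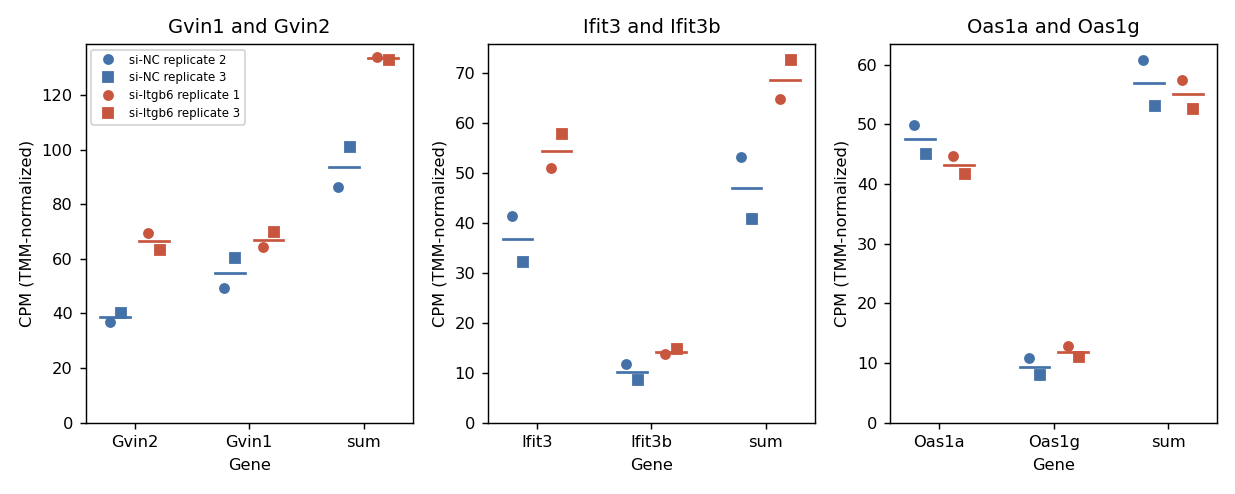
Level (TMM-normalized CPM, linear axes from 0) of 3 pairs of near-identical genes and of their summed counts; circles and squares are the 2 libraries of a group (si-NC blue, si-Itgb6 red) and bars are group means. The sums of Gvin1 with Gvin2 and of Ifit3 with Ifit3b are higher in both si-Itgb6 libraries, and the sum of Oas1a with Oas1g overlaps between groups.

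Gbp2, a guanylate-binding protein, had 61 and 52 counts in si-NC and 60 and 101 counts in si-Itgb6. Only si-Itgb6 replicate 3 stood clearly above the si-NC libraries. The log2 fold change was 0.57 (SE 0.27, 95% interval 0.03 to 1.12) with an adjusted p of 0.247 (edgeR), and it became 0.20 without si-Itgb6 replicate 3 and 0.86 without replicate 1 of that group. It was also not called without si-NC replicate 3 (0.43), with library size alone (0.56), with DESeq2 (0.57) or with GC and length trends removed (0.49). The neighbouring guanylate-binding genes on chromosome 3 did not pass: Gbp3 had a log2 fold change of 0.03 (95% interval -0.48 to 0.54), and Gbp7 had 0.04 (-0.62 to 0.69), with 61 and 35 counts in the si-NC libraries.

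Among the other antiviral effectors, 1 of 7 tested genes was called. Oasl2, an oligoadenylate synthetase-like protein with ubiquitin-like domains, had 373 and 340 counts in si-NC and 416 and 454 counts in si-Itgb6. The groups did not overlap. Its log2 fold change was 0.36 (SE 0.12, 95% interval 0.12 to 0.59, adjusted p = 0.0704, edgeR), and without si-NC replicate 3 it was 0.25 and not called.

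Ifitm2, a membrane protein that hinders viral fusion and the most abundant effector by CPM, had 1848 and 2151 counts in si-NC and 1657 and 1738 counts in si-Itgb6. Both si-Itgb6 libraries were lower without overlap, but the log2 fold change was small, -0.16 (95% interval -0.30 to -0.02, adjusted p = 0.176, edgeR). Its close relative Ifitm3 had 1528 and 1600 counts against 1313 and 1291, log2 fold change -0.19 (adjusted p = 0.127, edgeR). Ifitm3 was called lower with GC and length trends removed (-0.28), a setting that left library size uncorrected. The Ifitm genes therefore sat on the other side of 0 from the Ifit genes, and neither passed the fold threshold. Of the 50-base stretches, 48.5% for Ifitm2 and 10% for Ifitm3 also occur in other genes. The counts of Ifitm2 are not whole in 2 libraries, so reads may have been split.

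Oas1a, which makes the activator of RNase L, had 815 and 779 counts in si-NC and 691 and 686 counts in si-Itgb6, with log2 fold change -0.14 (adjusted p = 0.429, edgeR). Oas1a shares 57.6% of its 50-base stretches with other genes (Oas1g and Oas1b), and Oas1g had log2 fold change 0.35 (adjusted p = 0.284, edgeR). The sum of Oas1a and Oas1g had a log2 fold change of -0.05 (95% interval -0.22 to 0.13, adjusted p = 0.816, edgeR), so the opposite signs within the pair cancelled.

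Rsad2, the radical enzyme viperin, had 361 and 285 counts in si-NC and 330 and 398 counts in si-Itgb6, and the groups overlapped (log2 fold change 0.24, adjusted p = 0.34, edgeR). It was called higher when si-NC replicate 2 (0.46) or si-Itgb6 replicate 1 (0.32) was left out, and was 0.04 without si-NC replicate 3. Bst2, the tether that holds budding virions, had 0.05, and Samhd1, which depletes nucleotides, had 0.06. Neither passed the test.

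The ISG15 system was represented by the modifier Isg15 and its protease Usp18. Isg15 had 125 and 139 counts in si-NC and 144 and 161 counts in si-Itgb6. The groups did not overlap, at 7.86 ± 0.271 CPM against 9.54 ± 0.336, but the log2 fold change of 0.28 had a 95% interval of -0.08 to 0.64 (adjusted p = 0.424, edgeR). Usp18 had a log2 fold change of 0.04 (95% interval -0.35 to 0.43). Neither was called by edgeR or DESeq2 or had an unadjusted p under 0.05.

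None of the 5 RNA sensors and their regulators was called by edgeR or by DESeq2, with 1 and 0 at an unadjusted p under 0.05 (median log2 fold change -0.04). Trim25, the ubiquitin ligase that activates RIG-I, had 1716 and 1538 counts in si-NC and 1395 and 1359 counts in si-Itgb6. The groups overlapped after normalization, and the log2 fold change was -0.17 (adjusted p = 0.228, edgeR), reaching -0.28 and a call without si-NC replicate 3. Ifih1, the sensor MDA5, had 0.22 with overlapping groups and was called higher without si-NC replicate 2 (0.48). Adar, which edits double-stranded RNA, had 0.11, Eif2ak2, the kinase PKR, had -0.04, and Dhx58, the sensor LGP2, had -0.20 from 23 to 32 counts per library (95% interval -1.04 to 0.64). The summed level of the 5 genes was 172.7 CPM in si-NC replicate 2 and between 141.3 and 155.1 CPM in the other 3 libraries.

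None of the 5 tested transcription factors was called by either tool, again with 1 by edgeR and 0 by DESeq2 at an unadjusted p under 0.05 (median -0.08). Irf7, which drives interferon alpha genes, had 1106 and 1135 counts in si-NC and 905 and 964 counts in si-Itgb6. It was lower without overlap, with a log2 fold change of -0.19 (95% interval -0.35 to -0.03, adjusted p = 0.167, edgeR). Stat2, which with Irf9 is part of the complex that binds the ISRE, had 0.19, Irf9 had -0.08, Irf1, a factor induced by interferon gamma, had -0.14, and Irf3, which is activated by nucleic acid sensors, had 0.16 with 286 and 207 counts in the si-Itgb6 libraries. Irf3 was called higher without si-Itgb6 replicate 3 (0.41) and was -0.14 without si-Itgb6 replicate 1. The exons of Irf3, Irf7 and Irf9 overlap those of Bcl2l12, Phrf1 and Rnf31. The strands are opposite for Irf3 and Irf7, and the libraries held no strand information. For Irf9 and Rnf31 the strand is the same. Reads in the shared stretches therefore cannot be told apart for Irf3, Irf7 or Irf9.

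Nlrc5, the transactivator of MHC class I genes, had 0 counts in both si-NC libraries and 5 and 7 counts in the si-Itgb6 libraries. Against a floor of 3 counts over the si-NC group the ratio was 4.2. That ratio takes no account of the sampling error of the few si-Itgb6 counts, and Nlrc5 did not pass the filter on low counts. In the same libraries other genes that were at or near 0 in si-NC had a few counts: the fibroblast collagen Col1a1 had 0 and 1 counts in si-NC and 22 and 2 in si-Itgb6, the myeloid gene Lyz2 had 0, 0, 11 and 0, the class II chain H2-Eb1 had 0, 0, 6 and 2, and the leukocyte gene Ptprc had 3, 1, 0 and 6. Other markers with few counts did not rise in si-Itgb6. In the same order of libraries, Flt3 had 6, 10, 4 and 5 counts, Cd79a had 1, 3, 0 and 2, and Pecam1 had 1, 7, 0 and 0. The part of any of these transcripts in the Nlrc5 and Gbp2 values was not tested.

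Over the whole marker lists, 3 of 15 leukocyte markers (Csf1r, Cd68 and Cd14) passed the filter, none was called by edgeR or DESeq2 (1 and 0 at an unadjusted p under 0.05), Cd3e and Siglech were among those with 0 counts in every library, and the summed level was 141.0 and 152.0 CPM in si-NC and 136.6 and 133.0 CPM in si-Itgb6. Of 8 fibroblast markers 1 passed the filter, and the list summed to 3.2 and 3.5 CPM against 5.8 and 3.3. Of 6 endothelial markers 1 passed, with sums between 2.8 and 4.3 CPM. In bulk RNA, fewer cells of a type and less RNA per cell cannot be told apart.

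Of the 6 antigen processing and presentation genes, 1 was called lower and none higher, and 5 of 6 log2 fold changes were below 0 (median -0.10). Psmb9, a catalytic subunit of the immunoproteasome, had 50 and 58 counts in si-NC and 37 and 27 counts in si-Itgb6. The groups did not overlap, but the counts were few. Its log2 fold change was -0.68 (SE 0.33, 95% interval -1.34 to -0.01, adjusted p = 0.267, edgeR), and the call was lost with DESeq2 (-0.67) and without si-NC replicate 2 (-0.74), si-NC replicate 3 (-0.60) or si-Itgb6 replicate 3 (-0.42). Psmb9 and Tap1 lie back to back on chromosome 17 and their exons overlap on opposite strands.

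The other immunoproteasome subunits did not pass: Psmb8 had a log2 fold change of -0.13 and Psmb10 of -0.23 (95% interval -0.55 to 0.09), both lower without overlap. The peptide transporter subunits had -0.02 (Tap1) and 0.16 (Tap2). B2m, the invariant chain of MHC class I and the most abundant gene of the set by length-normalized level (mean of 291.8 FPKM, the authors' values per length and depth), had 4157 and 4448 counts in si-NC and 3897 and 3949 counts in si-Itgb6. Its log2 fold change of -0.06 had a 95% interval of -0.17 to 0.05 (adjusted p = 0.612, edgeR). It was -0.26, still not called, with GC and length trends removed, a value that also carries uncorrected differences in library size.

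None of the 7 other interferon-stimulated genes was called by edgeR or DESeq2, with 1 and 0 at an unadjusted p under 0.05 (median -0.01). Ifi27, an interferon alpha-inducible protein and the most abundant of them by CPM, had 1152 and 1317 counts in si-NC and 1055 and 1018 counts in si-Itgb6. It was lower without overlap (log2 fold change -0.18, adjusted p = 0.212, edgeR). Parp14 had 0.16, Ifi35 0.15 and Rtp4 0.09, the apoptosis factor Xaf1 had -0.03, Ifi44 had -0.07 and the ADP-ribosyltransferase Parp9 had -0.01. The groups overlapped for 4 of the 7, and Ifi35 and Parp14 were higher without overlap.

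Levels of the 40 genes tested, compared per length, ran from a mean of 0.635 FPKM for Gbp7 to 291.8 FPKM for B2m, with a median of 9.06, beside 9.07 for all genes tested. By this scale Ifit1 (0.834 FPKM in si-NC and 1.53 in si-Itgb6) and Gbp2 (1.35 and 1.98) were low, and Ifit3 (21.2 and 31.1) was well expressed.

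The other genes of the pathway were taken from lists. Of 14 interferon ligand genes none passed the filter, and 12 had 0 counts in every library. Ifnb1 had 2 counts in si-Itgb6 replicate 3 and 0 elsewhere, and Ifne had 2 and 0 counts in si-NC and 5 and 0 in si-Itgb6. Interferon transcripts were therefore not detectable beyond a few counts at this depth.

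None of the 6 receptor genes was called by edgeR or DESeq2, with 2 and 1 at an unadjusted p under 0.05 (median -0.15, with Ifngr1 at -0.24 and Ifnar1 at -0.13). Of 12 JAK-STAT transducers and inhibitors, 1 was called lower (8.33%, against 5.2% of all genes tested). Ptpn11, the phosphatase SHP2, had 1679 and 1573 counts in si-NC and 1107 and 1227 counts in si-Itgb6. The groups were well apart, with a log2 fold change of -0.41 (SE 0.08, adjusted p = 0.000963, edgeR). None of 19 tested genes that sense nucleic acids upstream of interferon was called by edgeR or DESeq2, with 2 and 0 at an unadjusted p under 0.05 (median -0.01). Among them were Mavs at 0.04 and Tlr3 at -0.01, while Tlr7, Tlr8 and Tlr9 had 0 counts.

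Of 16 MHC class I chains and loading factors, all tested, none was called by edgeR or DESeq2, with 2 at an unadjusted p under 0.05 by each tool (median -0.0008). The chaperone Canx, at 0.19, had an adjusted p of 0.0198 (edgeR) but did not pass the fold threshold. The classical chain H2-K1 had 3687 and 3560 counts in si-NC and 3086 and 3287 counts in si-Itgb6 (log2 fold change -0.11, adjusted p = 0.288, edgeR). The classical chain H2-D1 had 4759 and 4900 counts against 4589 and 5034 (0.07, adjusted p = 0.553, edgeR). The 2 classical chains thus had opposite signs and neither passed. Of 7 MHC class II genes 3 were tested and none was called or had an unadjusted p under 0.05 by either tool, and their transactivator Ciita had 0 counts.

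Of 55 tested interferon-stimulated genes outside the set, 6 were called higher (10.9%, against 4.37% of all genes tested; Irgm1, Igtp, Irgm2, Tgtp1, Gvin1 and Dtx3l) and 3 lower (5.45%, against 5.2%; Trim14, Phf11d and Apol9b), with a median of 0.07. Reads of Gvin1 cannot be told apart with certainty from those of Gvin2, so its call is not separate from that member. DESeq2 called 3 higher and 1 lower, where it called 2.73% of all genes higher and 3.27% lower. The immunity-related GTPase Irgm1 had 230 and 248 counts in si-NC and 303 and 347 counts in si-Itgb6 (log2 fold change 0.51, SE 0.13, adjusted p = 0.0153, edgeR). Both si-Itgb6 libraries were higher. Trim14, an adaptor of the antiviral signalling protein MAVS, had 151 and 156 counts against 80 and 99, both lower (-0.71, SE 0.19, adjusted p = 0.0301, edgeR). The related GTPases Irgm2 (18, 21, 27 and 48 counts in the order si-NC 2 and 3, si-Itgb6 1 and 3) and Tgtp1 (6, 4, 10 and 26) were highest in si-Itgb6 replicate 3. Their log2 fold changes were 1.01 (adjusted p = 0.174, edgeR) and 1.88 (adjusted p = 0.101, edgeR), falling to 0.59 and 1.10 and losing the call without that library.

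The spread between replicates was as large as the difference between groups for many of these genes. In 20 of the 40 genes the si-NC replicates differed by more than the groups did. The level was higher in si-NC replicate 2 than in replicate 3 for 23 of the 40. These counts were not made over all genes tested, so they do not say whether the set varied more than the table as a whole. The ratio between these replicates on the log2 scale was 0.88 for Gbp7, 0.48 for Ifih1 and Ifit3b, 0.42 for Rsad2 and 0.36 for Ifit3. Without si-NC replicate 3 the number called higher fell from 7 to 4 (Gvin2, Ifit1, Ifit2 and Ifit3), and without any other library it stayed between 7 and 8.

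Fold change was related to base composition across the table. Across 11709 genes, which share the same 4 libraries and are not independent replicates, Spearman's rho between the log2 fold change and the GC content of the longest transcript was -0.364. The median GC content was 49.8% for all genes tested, 50.2% for the 40 genes of the set and 45.8% for the 7 called higher. With trends on GC and length removed, 5 genes were called higher: Gvin2 (0.61), Ifit1 (0.76), Ifit3 (0.48), Ifit3b (0.39) and Oasl2 (0.31). Ifit2 and Gbp2 were no longer called, and Ifitm3 joined Psmb9 on the lower side. The offsets used to remove the trends held no library sizes, so differences in depth were left in these values. The median log2 fold change of all genes tested was -0.05 in that setting. Calls gained or lost there cannot be assigned to GC content or length.

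**Figure D4:**
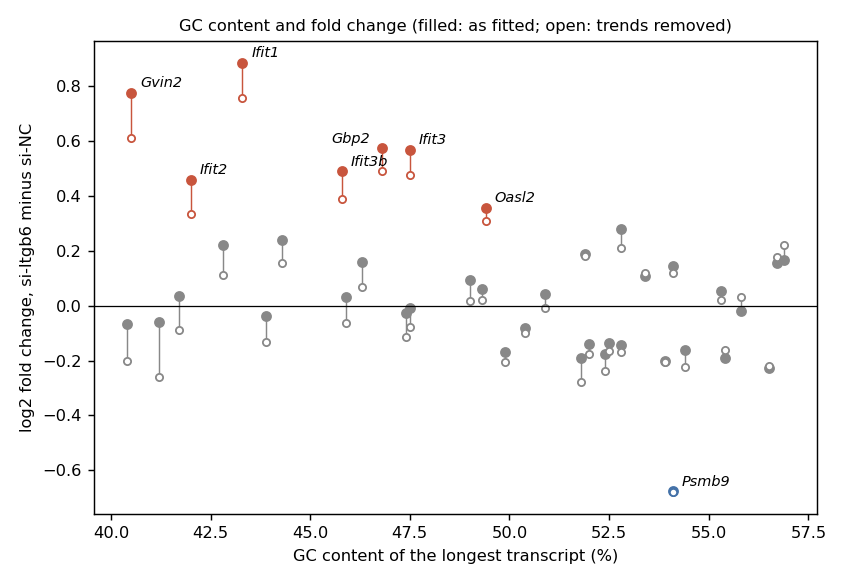
Log2 fold change (si-Itgb6 minus si-NC) of the 40 tested genes against the GC content of the longest transcript (percent); filled points are the values as fitted, open points those with GC and length trends removed, and a line joins the 2 values of a gene (red called higher, blue called lower, grey not called). The genes called higher lie below 50% GC, and the open point lies below the filled one for each of them. Open values also carry differences in library size that their fit did not correct. The median of that fit over all genes tested was -0.05.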

How the data were processed

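Polyadenylated RNA of 4 libraries was sequenced in pairs without strand information. The authors deposited estimated counts per gene, made from these reads and not normalized, and FPKM values, used here only to compare levels between genes. Counts are not whole for 1447 to 1500 genes per library and for 9 of the 40 genes tested. The aligner, counting tool, build and annotation are not given in the sources used here. The per-library files repeat the table of the series, and its KEGG and GO columns were not used.

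Counts (15435080 to 17220286 per library) were rounded, filtered with filterByExpr (minimum count 10, minimum total 15), normalized by TMM and compared in R 4.3.3 with edgeR's quasi-likelihood F test (version 4.0.16), and p-values were adjusted by the Benjamini-Hochberg method over 11727 genes. The study names edgeR and the thresholds used for calls, p under 0.05 before adjustment together with a more than 1.2-fold change, but not the edgeR test, normalization or filter. An exact permutation test of 2 libraries against 2 cannot go below a p of 0.333. Replicates differed by more than sampling noise (chi-square per gene 3.15 in si-NC and 4.00 in si-Itgb6). The fit was tested on simulated counts. Alternatives were the exact and likelihood ratio tests, DESeq2 1.42.0, other normalizations, filters and thresholds, GC and length offsets, leaving out each library and, chosen after seeing the data, sums of near-identical genes. The GC and length offsets took the place of the normalized library sizes, so that fit was not corrected for depth.

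The genes and lists were chosen with earlier results of these data known. Values per library are given for called genes, the most abundant gene of each role by CPM, at most 5 called genes of each other list, Itgb6, H2-K1 and H2-D1. Some genes of the lists are not reported here. Other genes given by library were chosen after their values were seen. Coordinates, exon overlaps, GC content and shared 50-base stretches rest on the GRCm38 annotation GENCODE vM21, which held 99.6% of the identifiers and may not be the authors' annotation. Promoters are from RefSeq (GRCm38.p6).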

Additional observations from a re-analysis of the deposited data

How the results depend on the processing

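The number of genes called higher was 7 and ranged from 4 to 8 when 1 library was left out, with 4 only without si-NC replicate 3. It was 2 at a fold change over 1.5 (Gvin2 and Ifit1) and 2 at an adjusted p under 0.05 (Gvin2 and Ifit3), 5 with DESeq2 and with GC and length trends removed, and 6 to 8 under the other tests, normalizations and filters. The eighth without a filter was Nlrc5. The number called lower was 1 and ranged from 0 to 1 when 1 library was left out, with 0 in the absence of si-NC replicate 2 or of si-Itgb6 replicate 3. It was 0 with DESeq2, 0 at an adjusted p under 0.05 and 2 with GC and length trends removed (Ifitm3 and Psmb9). The setting with trends removed was not corrected for library size, so its counts of calls do not reflect GC and length alone. The median log2 fold change of the set stayed above 0, from 0.0046 to 0.0984 with 1 library left out. Ifit3 was called under every alternative but the fold change over 1.5, and its adjusted p was not under 0.05 without si-NC replicate 3. Itgb6 reversed sign when si-NC replicate 2 (0.0383) or si-Itgb6 replicate 3 (0.0909) was left out, within a range of -0.10 to 0.09. Gvin1 lost its call with GC and length trends removed (0.13), when si-NC replicate 2 (0.15) or si-Itgb6 replicate 3 (0.23) was left out. Tgtp1 lost it when si-NC replicate 3 (1.59) or si-Itgb6 replicate 3 (1.10) was left out, and Irgm2 lost it with DESeq2 and with any library but si-Itgb6 replicate 1 left out (0.59 to 1.08). The causes were not tested. With 1 library left out, the lone library of its group is assumed to vary like those of the other group. No paired analysis was possible because the groups share only replicate number 3. Genes with few counts, such as Ifit1, Gbp2, Psmb9 and Nlrc5, are limited by depth.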
